A study of Mus musculus with 16 samples.

Results

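Neurexins and neuroligins are the adhesion partners that face each other across the synaptic cleft. Neurexins (Nrxn2 and Nrxn3 here) sit mainly in the presynaptic membrane, and neuroligins (Nlgn1, Nlgn2 and Nlgn3) in the postsynaptic membrane, where Nlgn1 is known for excitatory synapses, Nlgn2 for inhibitory synapses and Nlgn3 for both. Neurexin genes use separate promoters for a long alpha form, which starts far upstream and carries many exons, and a short beta form, which starts inside the gene and shares only the last exons. Alternative splicing of both families is known to set which partner is bound, which makes reads of whole molecules a direct way to see their forms.

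The 5 genes were taken by the gene name in the isoform tables, out of 165274 genes and loci listed, and all 5 were found. They held 5220 of 11188350 reads in the 16 samples, over 871 of their 895 listed isoforms. The genes were chosen by their read numbers and isoform shares in these same samples, so the values below describe them and are no independent support. RNA came from the cortex and the striatum of male 3-month-old mice, either R6/2 mice, which carry a transgene of exon 1 of mutant human huntingtin on a B6CBA background, or age-matched non-transgenic (NT) mice, with 4 samples per genotype and region. The labels give no other allele and no treatment. Long-read sequencing (Pacific Biosciences Iso-seq) of polyadenylated RNA gave the number of reads per isoform. The transgene is human and was not checked here. The labels do not say which samples came from the same animal, and p values measure only the spread between these samples.

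TALON, the program that named the isoforms, sorts reads into classes. Known isoforms match every splice junction of an annotated transcript. Incomplete splice matches (ISM) match part of an annotated transcript, and some have a single exon and so no junction. NIC isoforms join annotated splice sites in a combination missing from the annotation, and NNC isoforms use a splice site missing from it. Single-exon entries held 162 of 216 ISM reads of Nlgn1, 89 of 204 of Nrxn3 and 5 of 52 of Nrxn2. They held 2 of 6 of Nlgn2 and 1 of 19 of Nlgn3. Genomic reads overlap a gene without following its annotated exon structure. Known, ISM, NIC and NNC reads are called isoform reads below, and known, NIC and NNC reads are called complete reads. Cortical samples held 203081 to 700715 isoform reads and striatal ones 251925 to 1350502. Levels are given as CPM, reads per 1000000 isoform reads after scaling of the libraries, so that 1 read was worth between 0.776 and 4.87 CPM. Striatal identity was clear from 9 markers of striatal projection neurons, whose summed level was 10075 to 13826 CPM in the NT striatum and 375 to 470 CPM in the NT cortex. In the R6/2 striatum the same sum was 1888 to 3259 CPM, with 7 of 9 markers lower. Fewer cells of a type and less RNA per cell cannot be told apart in these tissue samples.

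Splice junctions of annotated isoforms that carried reads are printed first, because most results below turn on which exons were joined. Each run holds the last 15 bases of the upstream exon in lower case and the first 15 bases of the downstream exon in capitals, in the direction of transcription, from the GENCODE M21 transcripts on mm10. Nrxn3 (ENSMUSG00000066392) spans chr12:88722876-90334935 on the plus strand. Its short protein-coding isoform ENSMUST00000110130 runs from the first exon of the beta form into a shared exon and later includes a 90-base exon at chr12:90199147-90199236. That exon is the alternative segment whose inclusion is known to change the ligands of a neurexin and which Khdrbs proteins are known to make neurons skip. The noncoding isoform ENSMUST00000110138 starts at chr12:88722888, close to the alpha start, and holds an 18-base exon.
Nrxn3 beta first exon to shared exon: ttcgaggagggcacgCTGGTGCAACATACA
Nrxn3 into the 90-base exon: agcactatcctacagGCAACACTGATAATG
Nrxn3 out of the 90-base exon: ggctgcaggaaaaagGCCGGCAGCTAACCA
Nrxn3 into the 18-base exon: cactctgctcagaagATGTCAGTCAAGGTC

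Nlgn3 (ENSMUSG00000031302) spans chrX:101299168-101325963 on the plus strand. Neuroligin genes carry a splice site in the extracellular domain where short inserts can be added, and in Nlgn3 a pair of 60-base exons can be used there. ENSMUST00000065858 includes only the downstream one, at chrX:101307075-101307134, and ENSMUST00000151528 includes it together with the upstream one, at chrX:101303072-101303131. The junctions that tell these isoforms apart are shown.
Nlgn3 ENSMUST00000065858 into the downstream 60-base exon: tgcccacggaagatgGATCCGGCGCTAAGA
Nlgn3 ENSMUST00000151528 into the upstream 60-base exon: tgcccacggaagatgTAAAGCGGATTTCCA
Nlgn3 ENSMUST00000151528 from the upstream to the downstream exon: tttgtaggaaaggagGATCCGGCGCTAAGA

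The remaining members had no protein-coding known isoform with reads. Nlgn1 (ENSMUSG00000063887, chr3:25426215-26332460, minus strand) was represented by ENSMUST00000192774, a retained-intron transcript of 3 exons at the 5′ end of the gene, chr3:26131670-26331870. Nrxn2 (ENSMUSG00000033768, chr19:6418731-6544169, plus strand) was represented by ENSMUST00000154580, a processed transcript of 3 exons and 576 nt. Nlgn2 (ENSMUSG00000051790, chr11:69823122-69837784, minus strand) had no known isoform with reads.
Nlgn1 ENSMUST00000192774, first junction: tcagcacaatgccttAAATGACAAAGAGAC
Nlgn1 ENSMUST00000192774, second junction: ctgagcacattcaggGATATAGACCCACTG
Nrxn2 ENSMUST00000154580, first junction: gacagcaccacccagAACACAGATGACCTC

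Most reads of all 5 genes were genomic reads. The genomic share was 78.5% of 396 reads for Nrxn2, 85.6% of 2506 for Nrxn3, 85.3% of 1771 for Nlgn1, 97.7% of 263 for Nlgn2 and 71.5% of 284 for Nlgn3. Over the 9727 genes with at least 100 reads the median genomic share was 6.81%, and between 95.5% and 99.1% of those genes lay below the members. The members with the longest loci spread these reads most widely. Nrxn3, with a locus of 1612 kb, had 2144 genomic reads in 409 separate entries, and Nlgn1, with 906 kb, had 1511 in 259. In Nrxn2 and Nlgn2 the genomic reads sat largely in single entries, 269 of 311 in 1 entry of 1954 nt for Nrxn2 and 256 of 257 in 1 entry of 1069 nt for Nlgn2. In Nlgn3 the largest of 6 entries held 89 of 203 genomic reads. Nearly all of these entries had 1 exon, 403 of 409 for Nrxn3 and 257 of 259 for Nlgn1. Nlgn2, the neuroligin of inhibitory synapses, was left with 6 isoform reads in 16 samples, all ISM, so neither its level in isoform reads nor its isoforms could be compared.

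**Figure D1:**
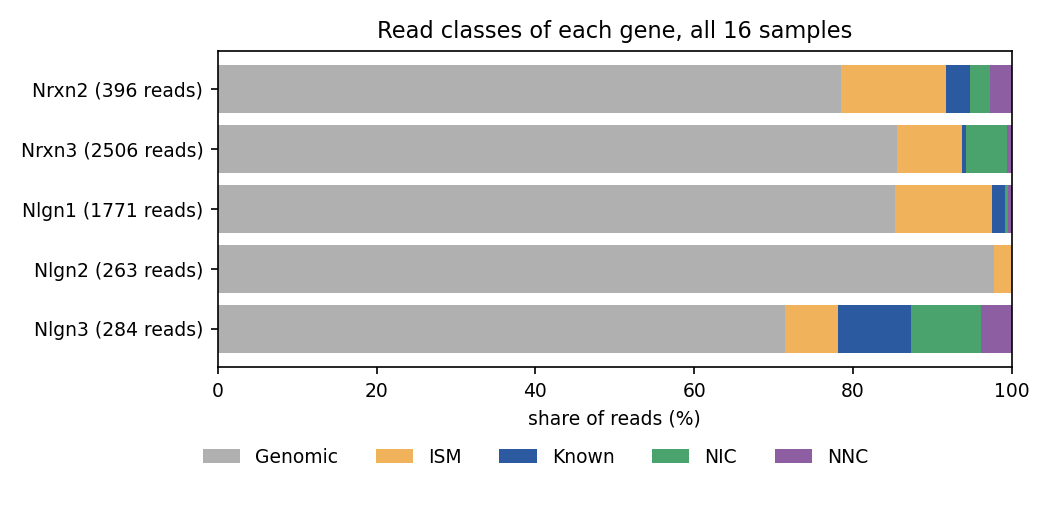
Share of reads (horizontal axis, %) in each TALON class for the 5 genes, over all 16 samples. Genomic reads (grey) made up 71.5% to 97.7% of each gene's reads, and known isoforms (blue) were widest in Nlgn3 at 9.15%.

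The question for the neurexins was which of the alpha and beta forms the reads show. Annotated long transcripts, set here as 15 or more exons, number 6 for Nrxn2 with 20 to 23 exons and 5 for Nrxn3 with 17 to 21 exons. None of these annotated long transcripts had a read. Of 33 complete Nrxn2 reads, 1 was long (3.03%, 95% Wilson interval 0.537 to 15.3), an unannotated isoform of 17 exons and 3771 nt in sample 4 of the NT cortex. A further 4 reads had between 10 and 13 exons and 28 had 9 or fewer. Among these 28 were 12 reads of the noncoding transcript ENSMUST00000154580, so the long share does not set alpha forms against beta forms alone. Of 158 complete Nrxn3 reads none was long and none had more than 9 exons. They include 7 reads of ENSMUST00000110138 and 5 of ENSMUST00000190030, noncoding transcripts near the alpha start. Few exons therefore need not mean a beta form. A count of 0 long reads allows a share of up to 1.90% by the limit of 3 reads. The upper end of the 95% Wilson interval was 2.37%. Intervals and limits cover counting error only, and reads without molecular identifiers are not independent molecules. Over all genes, isoforms with 15 or more exons held between 5.22% and 9.21% of complete reads. The annotated long transcripts are 5001 to 6667 nt in Nrxn2 and 3303 to 7922 nt in Nrxn3, and 1.76% to 2.47% of complete reads over all genes belonged to isoforms of at least 6000 nt. With 0 or 1 long read the share could not be tested between genotypes.

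Most short Nrxn3 reads shared an exon number, in isoforms of several lengths. Of the 158 complete reads, 112 had 7 exons (70.9%, 63.4 to 77.4), the exon number of the annotated beta transcript ENSMUST00000110130, which itself had 3 reads. The other 7-exon reads were of unannotated isoforms, and 3 NIC isoforms held most of them, with 41 reads at 2213 nt, 30 at 2759 nt and 21 at 3080 nt. Another 2 NIC isoforms with 7 exons were 9 nt longer than the first 2, with 3 reads at 2222 nt and 7 at 2768 nt. The tables give the exon number and length of unannotated isoforms but not their exons, so whether they hold the 90-base exon was not analysed here. In the striatum 49 of 75 complete reads in NT and 40 of 52 in R6/2 samples had 7 exons, or 65.3% (54.1 to 75.1) and 76.9% (63.9 to 86.3). In the cortex they were 11 of 14 in NT and 12 of 17 in R6/2 samples, and all these intervals overlapped.

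**Figure D2:**
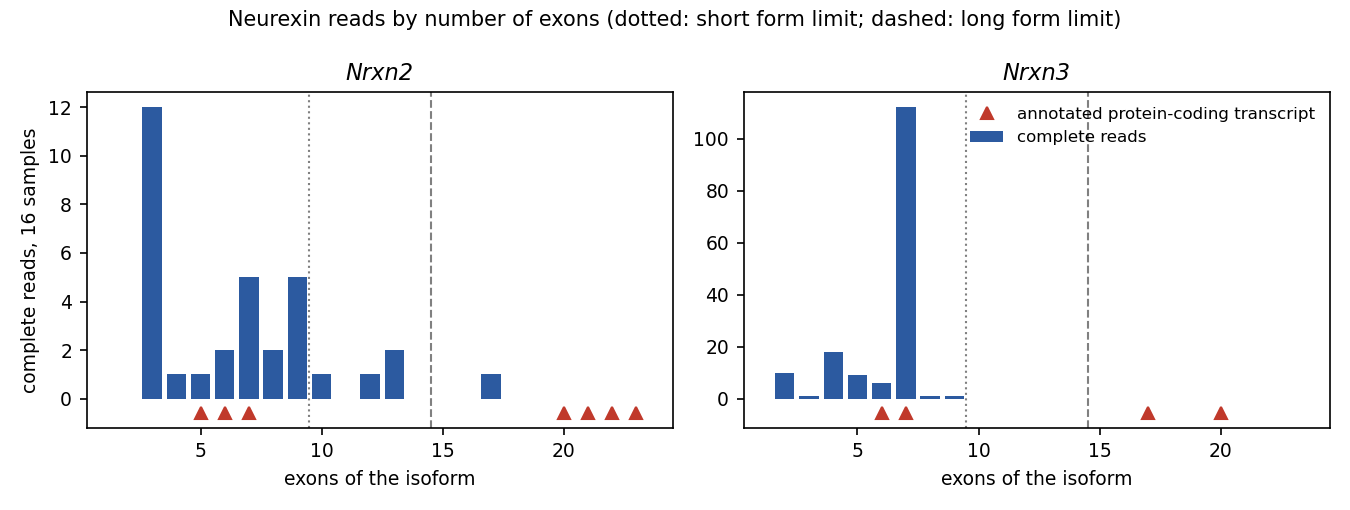
Complete reads (vertical axis, all 16 samples) by the number of exons of the isoform (horizontal axis) for Nrxn2 and Nrxn3, with red triangles at the exon numbers of annotated protein-coding transcripts. Nrxn3 reads peak at 7 exons with 112 of 158 reads, and 1 Nrxn2 read lies to the right of the long form limit.

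At the upstream end of Nrxn3 a few reads were seen. ENSMUST00000110138, the retained-intron transcript with the 18-base exon, had 7 reads, 3 in each striatal genotype and 1 in the R6/2 cortex, and the noncoding ENSMUST00000190030 at chr12:88725681 had 5, of which 4 were in the NT striatum. Over all members, 82 reads belonged to 8 known isoforms, and 53 of these reads belonged to noncoding transcript types. Incomplete matches of several exons in Nrxn2 were mostly suffixes, which lack the 5′ part of a transcript, with 44 of 47 reads. In Nrxn3 61 of 115 such reads were suffixes and 31 were prefixes, which lack the 3′ part.

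Nrxn3 was the best covered member, with 362 isoform reads, 89 of them single-exon ISM reads without a junction. In the NT striatum its level was 59.1, 50.4, 39.4 and 73.1 CPM in samples 1 to 4, and in the R6/2 striatum 18.9, 41.3, 44.5 and 32.9 CPM. The R6/2 samples were lower on the whole, and the groups overlapped between 39.4 and 44.5 CPM, where 5.12% of genes with at least 5 reads did not overlap. The means were 55.5 ± 14.2 and 34.4 ± 11.4 CPM (SD, n = 4), and the fitted log2 fold change was −0.59 ± 0.24 (SE), with an edgeR adjusted p of 0.22. Over all genes tested in the striatum 4.13% were called at an adjusted p under 0.05, and no member was. The unadjusted edgeR p was under 0.05 for 2 members in the striatum (Nrxn3 and Nrxn2) and 1 in the cortex (Nlgn1). Over all genes it was under 0.05 for 1417 of 8155 in the striatum (2249 of 21677 in the unfiltered fit that gave Nrxn2) and 1055 of 6128 in the cortex. DESeq2, which gave an adjusted p only for Nrxn3 and Nlgn1, called neither in either region. The summed projection neuron markers were also lower in the R6/2 striatum. So were the summed astrocyte markers, at 1135 to 1578 CPM against 1768 to 3566 CPM in NT samples (1 of 5 tested was called lower). Interneuron markers had 100.2 to 357 CPM in R6/2 and 249 to 799 CPM in NT samples, with 1 of 5 tested called lower. The part of these markers in the levels of the members was not tested. Counted with its genomic reads, Nrxn3 was lower by −0.68 with an edgeR adjusted p of 0.032, in a fit where 5.54% of genes were called. That value lies beyond both the −0.59 of isoform reads and the −0.32 of genomic reads. Those were each scaled apart and neither was called, so the call depends on how the reads were joined and scaled. In the cortex the level was 27.0, 23.8, 34.1 and 38.5 CPM in NT and 25.6, 12.2, 30.5 and 20.7 CPM in R6/2 samples. These ranges overlapped, and the log2 fold change was −0.41 ± 0.32 (edgeR adjusted p = 0.57), beside 3.23% of genes called in the cortex, among them no member. In the cortex the summed markers of R6/2 and NT samples did not overlap for astrocytes, interneurons and striatal projection neurons. Astrocyte sums were 1183 to 1640 against 2022 to 3328 CPM, with 1 of 5 tested markers called lower. Interneuron sums were 171 to 212 against 336 to 564 CPM, with 2 of 4 tested called lower. Projection neuron sums were 95.4 to 130.2 against 375 to 470 CPM, with 2 of 3 tested called lower. Of single genes with at least 5 reads in the cortex, 7.33% did not overlap. The part of these markers in the cortical values was not tested either.

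The striatal samples had been counted in unequal ways. Samples 1 and 2 of NT and 2 and 3 of R6/2 mice had 2 count files each, which were summed, and the other 4 had 1. Among samples with 2 files the mean Nrxn3 level was 54.8 CPM in NT and 42.9 in R6/2 mice, and among samples with 1 file it was 56.2 and 25.9 CPM, so R6/2 was lower in both. Without the term for the number of files the log2 fold change was −0.65 (edgeR adjusted p = 0.50), and with the first file only it was −0.86 (adjusted p = 0.45). Sample 3 of the NT striatum stood apart by choroid plexus markers (a summed 9215 CPM, with 35.2 to 9215 CPM over the group), and without it the log2 fold change was −0.66. Leaving out 1 sample at a time gave values from −0.70 to −0.42.

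Nrxn2, read at much lower depth, had 85 isoform reads. In the cortex its level was 27.0, 10.8, 9.74 and 19.2 CPM in NT and 14.6, 8.12, 4.15 and 9.20 CPM in R6/2 samples. In the striatum it was 5.03, 7.76, 18.9 and 0 CPM in NT and 0, 7.22, 3.04 and 7.05 CPM in R6/2 samples. Samples without a read could have held up to 14.6 CPM (NT sample 4) and 4.36 CPM (R6/2 sample 1), the level of 3 reads. Groups overlapped in both regions. Without the filter on low counts, which Nrxn2 did not pass within a region, the log2 fold change was −0.90 ± 0.48 in the cortex (edgeR adjusted p = 0.56) and −1.04 ± 0.52 in the striatum (adjusted p = 0.46), beside 1.35% and 2.94% of genes called in these fits. The striatal value fell to −0.19 without NT sample 3, which held 12 of the 26 NT reads.

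Nlgn1, the neuroligin of excitatory synapses, had 260 isoform reads, and 149 of them were 1 entry. An ISM isoform of a single exon and 71 nt (TALONT000183624) made up 78.6% of Nlgn1 isoform reads in the NT cortex, 79.4% in the R6/2 cortex, 26.8% in the NT striatum and 40.0% in the R6/2 striatum. It was read in all 8 cortical samples and in the 4 striatal samples with 2 count files, with 9 or 10 reads in each of the latter, and had 0 reads in the 4 striatal samples with 1 file. In those same 4 samples, and in no other, a genomic Nlgn1 entry of 523 nt (TALONT000823470) had 83 reads, 41 in NT and 42 in R6/2 samples. The level of the 71-nt entry in the cortex was 20.2 ± 5.70 CPM in NT and 34.8 ± 14.97 CPM in R6/2 samples (SD, n = 4), with a log2 fold change of 0.72 ± 0.36 in the fit over single entries (edgeR adjusted p = 0.33).

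With this entry, Nlgn1 was 21.6, 36.9, 19.5 and 24.998 CPM in the NT cortex and 69.6, 38.6, 38.8 and 27.6 CPM in the R6/2 cortex. The R6/2 samples 1, 2 and 3 lay above every NT sample and sample 4 lay within their range, with a log2 fold change of 0.72 ± 0.33 and an edgeR adjusted p of 0.26. Without R6/2 sample 1 it was 0.41 (edgeR adjusted p = 0.62). Without the 71-nt entry only 9 NT and 20 R6/2 cortical reads remained. The cortical levels were then 2.70 to 8.67 CPM in NT and 4.60 to 12.8 CPM in R6/2 samples, which overlapped. In the striatum the level was 26.4, 25.6, 22.0 and 14.6 CPM in NT and 8.72, 19.6, 19.2 and 14.1 CPM in R6/2 samples, which overlapped (log2 fold change −0.57 ± 0.28, edgeR adjusted p = 0.32). Without the 71-nt entry the striatal values were 13.8, 18.6, 22.0 and 14.6 CPM in NT and 8.72, 9.28, 9.11 and 14.1 CPM in R6/2 samples. R6/2 samples 1, 2 and 3 lay below every NT sample, and sample 4 lay within the NT range. The difference was then −0.85 with an edgeR adjusted p of 0.18. The interaction of region and genotype for Nlgn1 was −1.27 ± 0.43 (edgeR adjusted p = 0.77), where 0.0389% of genes were called.

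The retained-intron isoform ENSMUST00000192774 of Nlgn1, whose junctions are printed above, is named for its values after they were seen. It had 4, 12, 3 and 1 reads in the NT striatum and 1, 0, 1 and 0 reads in the R6/2 striatum, or 4.72 to 9.31 CPM against 0 to 1.45 CPM. These groups did not overlap, as was so in either direction for 5.1% of isoforms with at least 20 striatal reads. In the cortex it had 1 read in NT and 6 in R6/2 samples. It did not pass the filter for the fit over single entries, so no p value is given. No entry of any member was called in that fit, in which 2.74% of entries were called in the cortex and 3.74% in the striatum.

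Nlgn3 was the member with the most reads of known protein-coding isoforms, with 26, and most of its isoform reads came from the striatum. It had 72 isoform reads in the striatum and 9 in the cortex. In the NT cortex 1 read was counted, in sample 2, and in the R6/2 cortex samples had 2, 3, 2 and 1 reads, or 2.30 to 6.09 CPM. The cortical groups did not overlap, at a depth where 7.33% of genes with at least 5 reads did not either, and the unfiltered fit gave an edgeR adjusted p of 0.57. The gap lay between 1 read in NT sample 2 (2.168 CPM) and 1 read in R6/2 sample 4 (2.30 CPM). NT samples without a read could have held 5.77 to 14.6 CPM, the level of 3 reads. In the striatum the level was 6.29, 10.9, 9.45 and 4.87 CPM in NT and 4.36, 23.7, 15.2 and 11.8 CPM in R6/2 samples. The groups overlapped, and the log2 fold change was 0.75 ± 0.41 (unfiltered fit, edgeR adjusted p = 0.56). R6/2 samples with 2 count files held the highest values, with a mean of 19.5 CPM against 8.58 in NT, while with 1 file the means were 8.06 and 7.16 CPM.

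ENSMUST00000065858, the Nlgn3 isoform with only the downstream 60-base exon, was read 22 times, all in the striatum. It had 2, 3, 1 and 0 reads in NT and 2, 10, 4 and 0 reads in R6/2 samples, or 31.6% (15.4 to 54.0) of 19 and 44.4% (29.5 to 60.4) of 36 complete reads. These intervals overlap. ENSMUST00000151528, which holds both exons, had 1 read, in the R6/2 striatum, and ENSMUST00000130555, a coding transcript of 5 exons, had 3. A NIC isoform of 6 exons and 2119 nt had 2 reads in NT and 8 in R6/2 samples of the striatum. Lengths of known isoforms are those of the annotation, and a read needs to match the junctions only.

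Isoform usage could be tested for 2 members, both in the striatum. Nrxn3 had 3 isoforms with at least 10 reads and Nlgn3 had 2, and the edgeR adjusted p was 1.0 for each. Across genes 0.359% were called in the cortex, where no member had 2 such isoforms, and 0.45% in the striatum. The leading Nrxn3 isoform of 2213 nt made up 22.7% (14.7 to 33.3) of complete reads in NT and 26.9% (16.8 to 40.3) in R6/2 striatum, the one of 2759 nt 14.7% and 21.2%, and the one of 3080 nt 14.7% and 17.3%. None of the 17 annotated cassette exons of the members had 10, or even 5, known reads of each form, so no inclusion level was computed.

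**Figure D3:**
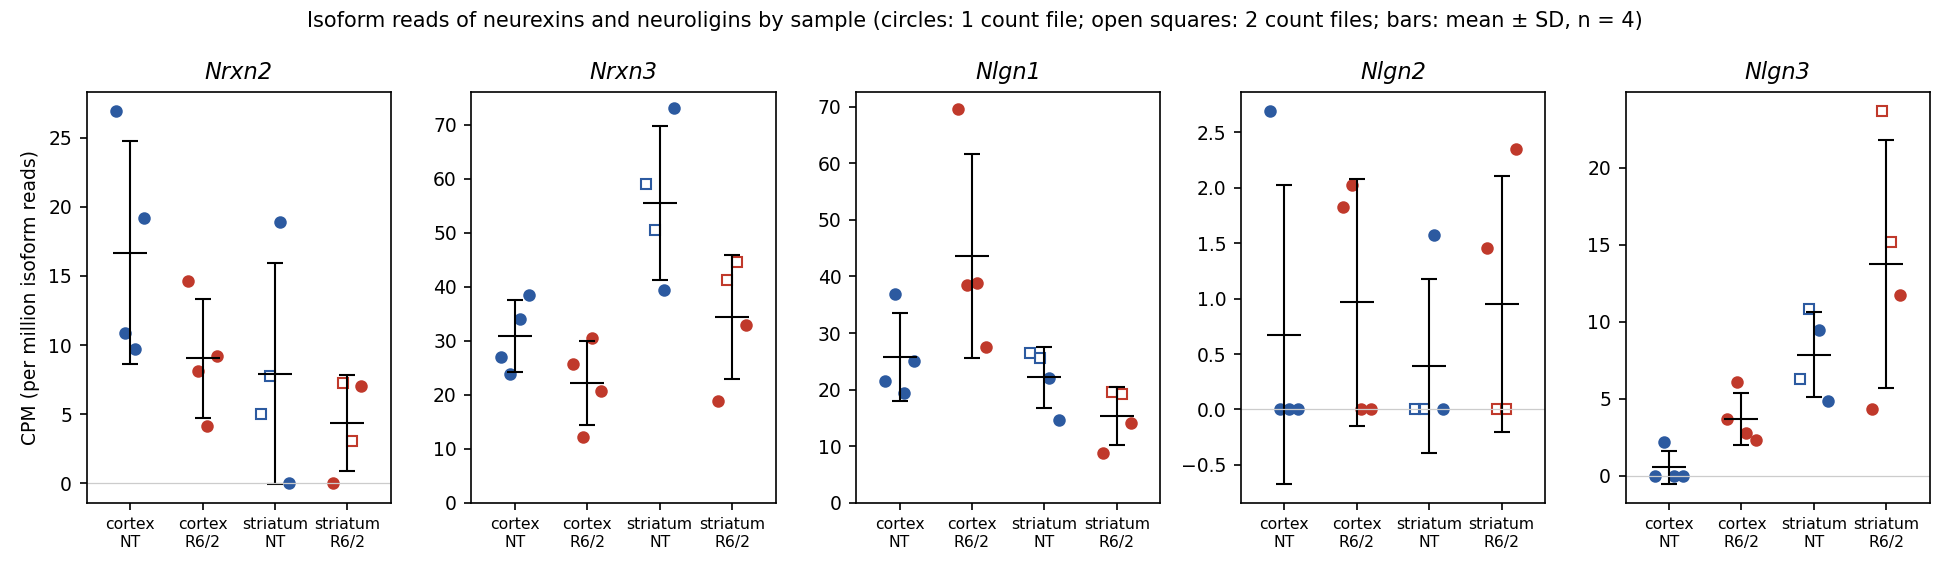
Isoform reads of the 5 genes as CPM (vertical axis) in each sample by region and genotype, with bars at the mean ± SD (n = 4). Nrxn3 spans 39.4 to 73.1 CPM in the NT striatum and 18.9 to 44.5 CPM in the R6/2 striatum, and Nlgn3 is at 0 in 3 of 4 NT cortical samples.

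Between regions the members differed in direction. Every cortical sample had 1 count file. With that number as a term, the fitted region differences here and below compare the cortex with the striatum at the level of 1 file. In the 71-nt and 523-nt entries of Nlgn1, however, the cortex was like the striatal samples with 2 files. The level of 1 file need not be like for like, and whether other genes share this was not tested. The ranges in CPM hold all 4 samples of a group. In NT mice Nlgn3 was higher in the striatum, with 4.87 to 10.9 CPM against 0 to 2.168 CPM in the cortex. The groups did not overlap, which held for 12% of genes, and the unfiltered edgeR fit gave a log2 fold change of 2.91 ± 1.04 and an adjusted p of 0.048, beside 10.5% of genes called. That call rests on 1 cortical read. It was lost in 9 of 16 fits that left out 1 sample (log2 fold changes 2.29 to 4.85, with 2.29 without NT striatum sample 3 and 4.85 without NT cortex sample 2) and with DESeq2 (adjusted p = 0.084). In R6/2 mice the same difference was 1.47 ± 0.65 (edgeR adjusted p = 0.18), beside 8.52% of genes called. Nrxn3 had 39.4 to 73.1 CPM in the striatum and 23.8 to 38.5 CPM in the cortex of NT mice. These groups did not overlap either, although the log2 fold change of 0.50 ± 0.34, with the number of count files as a term, had an edgeR adjusted p of 0.27. Nrxn2 showed differences of −0.57 ± 0.54 in NT and −0.66 ± 0.62 in R6/2 mice (edgeR adjusted p = 0.69 for each). They moved with single samples, to −2.50 (adjusted p = 0.062) and −1.87 (adjusted p = 0.14) without NT striatum sample 3, and to −0.21 without NT cortex sample 1 and −0.038 without R6/2 striatum sample 1.

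Nlgn1 was lower in the striatum of R6/2 mice, but that result rested on the 71-nt entry. Its level was 8.72 to 19.6 CPM in the striatum and 27.6 to 69.6 CPM in the cortex, with a log2 fold change of −1.84 ± 0.36 and an edgeR adjusted p of 5.3e-04, where 26.6% of genes were called and 14.7% did not overlap. Without the entry the striatum had 8.72 to 14.1 CPM and the cortex 4.60 to 12.8 CPM, and the unfiltered fit gave 0.39 with an adjusted p of 0.83, beside 8.51% of genes called. In NT mice the difference went from −0.57 ± 0.39 (edgeR adjusted p = 0.28, 32.6% of genes called) to 1.88 without the entry in the unfiltered fit (adjusted p = 0.014, 10.5% of genes called), where the unfiltered value with the entry was −0.42 (adjusted p = 0.72). Without it the levels were 13.8 to 22.0 CPM in the striatum and 2.70 to 8.67 CPM in the cortex of NT mice. The regions thus changed order with 1 entry of 71 nt, and the cause of its uneven presence was not tested.

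Genomic reads gave a separate count over the same loci at greater depth, scaled per 1000000 genomic reads and so on another scale than isoform reads. They do not follow the annotated exons, and whether they track the level of the spliced RNA was not tested. In the striatum Nrxn3 genomic reads were 3415, 3613, 3351 and 2984 CPM in NT and 2378, 2620, 2859 and 2427 CPM in R6/2 samples. The groups did not overlap, as for 7.67% of genes with at least 50 genomic reads. The log2 fold change was −0.32 ± 0.19 (edgeR adjusted p = 0.30, with 6.92% of genes called). Nlgn1 genomic reads were 1936 to 2360 CPM in NT and 1522 to 1920 CPM in R6/2 samples, again without overlap, with −0.15 ± 0.19 (edgeR adjusted p = 0.66). Without the 523-nt entry they were 1678 to 2053 CPM in NT and 1250 to 1920 CPM in R6/2 samples and overlapped, with −0.20 (adjusted p = 0.56). The other members overlapped in the striatum, and all 5 did in the cortex, where 8.9% of genes did not and where 1.44% were called, among them no member.

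**Figure D4:**
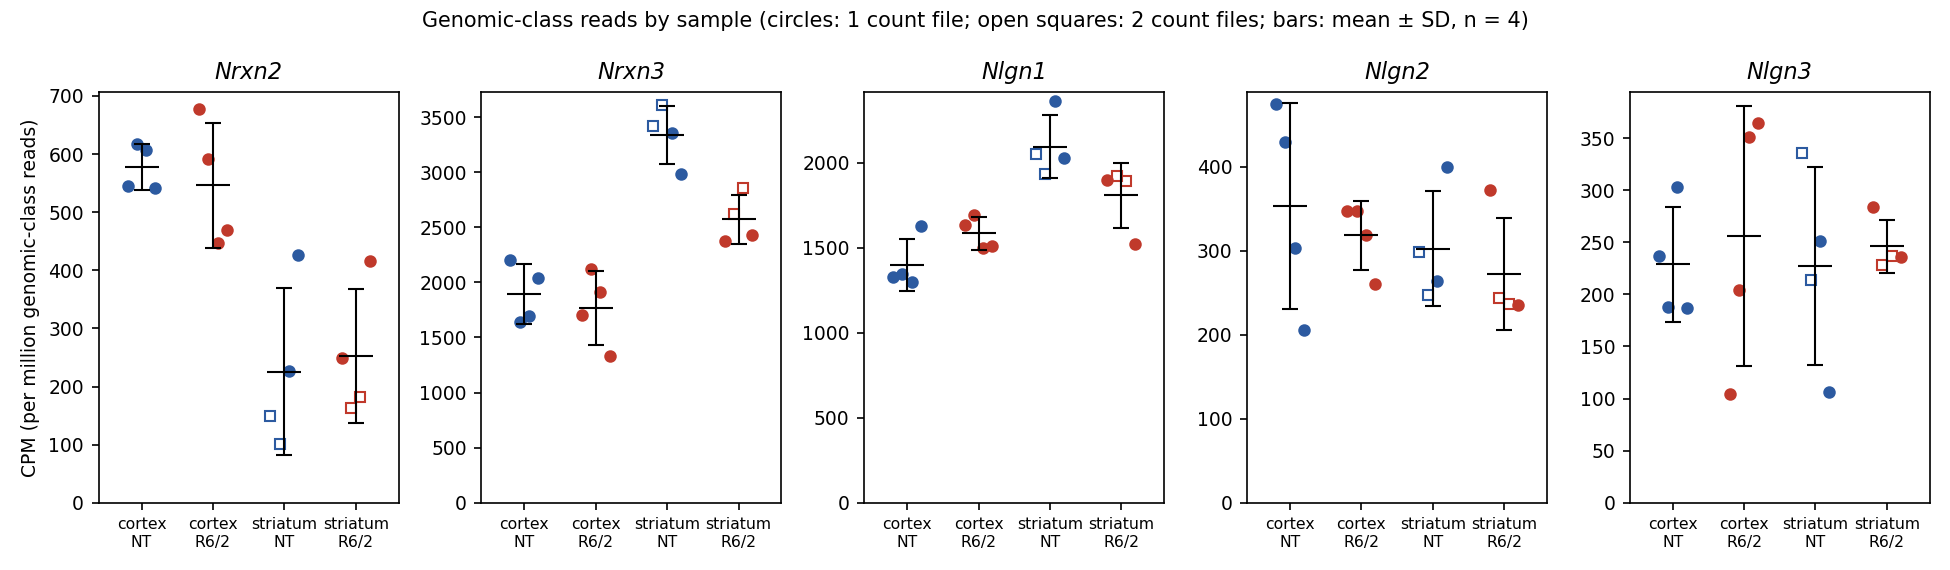
Genomic-class reads of the 5 genes as CPM of genomic reads (vertical axis) in each sample, with bars at the mean ± SD (n = 4). Nrxn3 lies between 2984 and 3613 CPM in the NT striatum and between 1638 and 2205 CPM in the NT cortex, and Nrxn2 between 101 and 426 CPM in the NT striatum and 542 and 618 CPM in the NT cortex.

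By genomic reads 3 members differed between regions in NT mice, where 30.6% of genes were called. These 3 also did not overlap, as for 19.4% of genes. Nrxn2 was lower in the striatum, with a log2 fold change of −1.01 ± 0.30 (edgeR adjusted p = 0.0093). Its call was lost without NT striatum sample 3 (−0.71, adjusted p = 0.17), with DESeq2 (adjusted p = 0.053) and without the filter (adjusted p = 0.17). Within the NT striatum Nrxn2 genomic reads were 149 and 101 CPM in the samples with 2 count files and 226 and 426 CPM in those with 1. Nrxn3 was higher in the striatum by 0.71 ± 0.21 (edgeR adjusted p = 0.0084), and the call held in all 16 fits that left out 1 sample. Nlgn1 was higher by 0.55 ± 0.20 (edgeR adjusted p = 0.035), a call lost in 5 of those 16 fits, without NT cortex samples 1, 2 or 3 or NT striatum samples 3 or 4, at a log2 fold change of no less than 0.45 throughout. It was also lost with the replicate number as a block (0.56, adjusted p = 0.064) and without the filter (0.58, adjusted p = 0.26). The 523-nt entry held 28 of 188 and 13 of 76 Nlgn1 genomic reads in samples 3 and 4 of the NT striatum and none in the cortex. Without that entry the difference was 0.27 and was not called (adjusted p = 0.34). Nlgn2 and Nlgn3 were at −0.14 ± 0.31 and −0.0025 ± 0.45 and were not called. In R6/2 mice no member was called, with Nrxn2 at −0.68 ± 0.28 (edgeR adjusted p = 0.075) and Nrxn3 at 0.42 ± 0.21 (adjusted p = 0.14), beside 25.5% of genes called. Their groups did not overlap in R6/2 mice, as for 16.9% of genes.

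**Figure D5:**
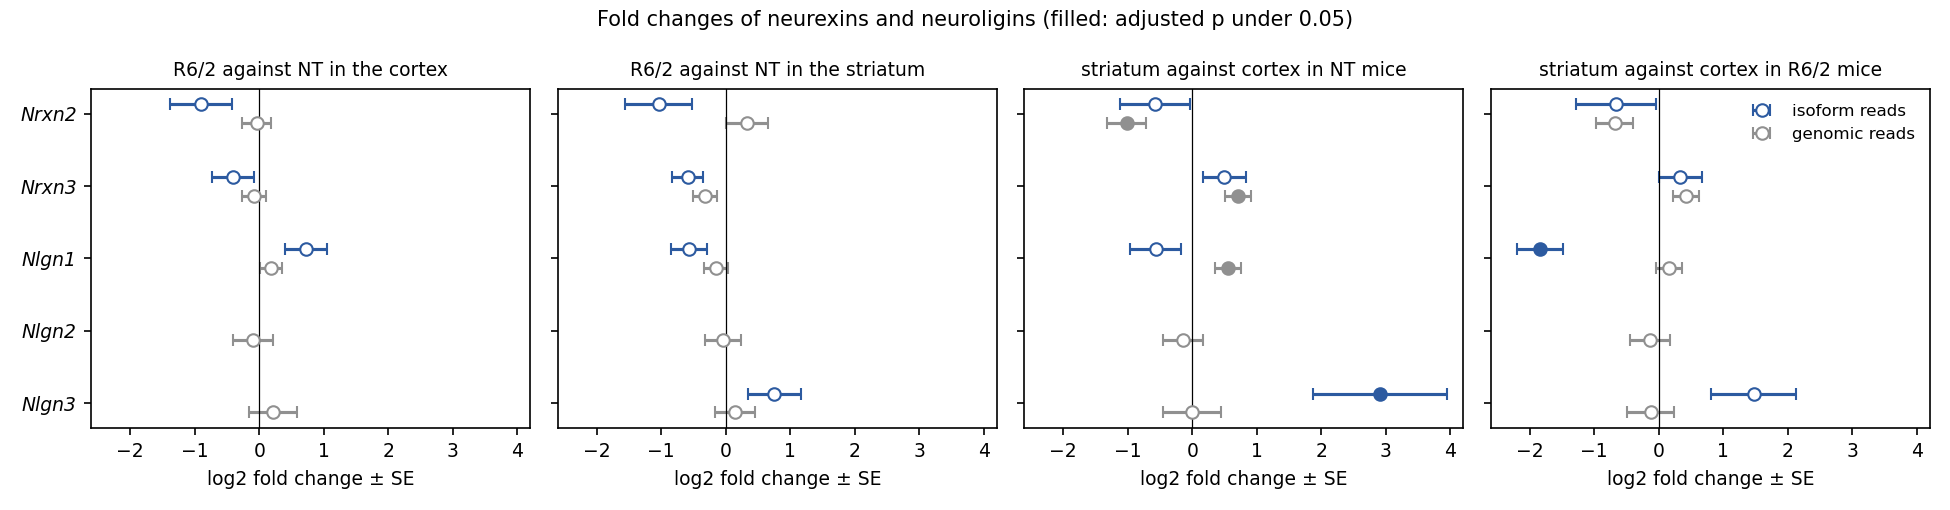
Fitted log2 fold changes ± SE (horizontal axis) of isoform reads (blue) and genomic reads (grey) for each member in 4 comparisons, filled where the adjusted p was under 0.05, with no isoform-read point for Nlgn2 or, in the cortex, Nlgn3. No member is filled for R6/2 against NT, and the filled Nlgn1 point at −1.84 in R6/2 mice rests on the 71-nt entry.

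Ordered by mean isoform reads, Nrxn3 ran from 55.5 CPM in the NT striatum through 34.4 in the R6/2 striatum and 30.8 in the NT cortex to 22.2 in the R6/2 cortex. Samples of neighbouring groups overlapped at each step. Nrxn2 ran from 16.7 in the NT cortex through 9.03 in the R6/2 cortex and 7.92 in the NT striatum to 4.33 in the R6/2 striatum, with overlapping samples at each step. Nlgn3 ran from 13.8 in the R6/2 striatum through 7.87 in the NT striatum and 3.71 in the R6/2 cortex to 0.542 in the NT cortex, and its cortical groups did not overlap while the other neighbours did. That cortical gap lay between single reads, and 7.33% of genes with at least 5 reads did not overlap in the cortex. Nlgn1 ran from 43.6 in the R6/2 cortex through 25.7 in the NT cortex and 22.2 in the NT striatum to 15.4 in the R6/2 striatum, with overlap at each step. Without the 71-nt entry this order became 17.3 in the NT striatum, 10.3 in the R6/2 striatum, 8.81 in the R6/2 cortex and 5.50 in the NT cortex, again with overlap at each step. Over the 16 samples the genes whose log2 CPM followed each member most closely, of 3162 genes with at least 20 reads on average in each group, were Pclo and Glul for Nrxn2 (Pearson r = 0.85 and 0.79), Rap1gap and Phyhip for Nrxn3 (0.82 and 0.80), Tusc3 and Nrd1 for Nlgn1 (0.84 and 0.81) and Ncam1 and Atp6v0a1 for Nlgn3 (0.85 and 0.81). For Nlgn2, with 6 reads, Lysmd2 and Clpp came out at 0.82 and 0.76. These values describe samples that share regions, genotypes and depth.

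Partners of these families were followed in 65 listed genes. In the cortex 27 could be tested with edgeR and none was called, with an unadjusted p under 0.05 for 9 of them, beside 1055 of all 6128 genes. In the striatum 36 could be tested, with 0 higher and 3 lower in R6/2 mice, beside 3.64% of all genes called lower. The unadjusted p was under 0.05 for 8 of the 36, beside 1417 of all 8155 genes. Lrrtm1, a postsynaptic neurexin ligand, was lower by −0.98 ± 0.19 (edgeR adjusted p = 0.0088). Lin7b, part of the presynaptic complex that binds the neurexin tail, was lower by −1.21 ± 0.25 (adjusted p = 0.015), and Dlgap3, a scaffold of the excitatory postsynaptic density, by −1.19 ± 0.27 (adjusted p = 0.025). These 3 calls come from the main fit and were not followed in the alternative settings. Leaving out 1 sample gave between 139 and 397 striatal calls over all genes. The median log2 fold change of the listed genes was −0.17 in the striatum and −0.26 in the cortex, where that of all genes was 0.0043 and 0.015. By role, 1 of 12 scaffolds, 1 of 7 other neurexin ligands and 1 of 5 presynaptic partners were called, and 0 of 10 other adhesion organisers. Of the splice regulators, Khdrbs1 and Khdrbs2 were tested in the striatum and not called, at 0.20 ± 0.23 and 0.05 ± 0.30. The summed striatal projection neuron and astrocyte markers were lower as well, as given above, and their part in the differences was not tested.

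Against the cortex, 2 of 35 tested partner genes were higher and 13 lower in the striatum of NT mice, and 1 was higher and 8 were lower in R6/2 mice. Over all genes 15.4% were higher and 17.2% lower in NT mice, and 12.5% and 14.1% in R6/2 mice. The medians of the listed genes were −0.54 and −0.35 on the log2 scale, and those of all genes tested were −0.12 and −0.10. Among the splice regulators, named after their values were seen, Khdrbs3 was lower in the striatum by −2.12 ± 0.39 in NT mice (edgeR adjusted p = 2.2e-04) and by −2.27 ± 0.39 in R6/2 mice (adjusted p = 1.4e-04). Khdrbs1 was lower by −0.81 ± 0.29 in NT mice (edgeR adjusted p = 0.035), with −0.68 ± 0.28 in R6/2 mice (adjusted p = 0.073). Khdrbs2 was not called, at −0.24 ± 0.39 in NT mice (edgeR adjusted p = 0.68) and −0.20 ± 0.35 in R6/2 mice (adjusted p = 0.72).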

How the data were processed

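Polyadenylated RNA from the cortex and the striatum of R6/2 and NT mice was sequenced as full-length cDNA in 16 samples. The authors built consensus reads, mapped them to mm10 with minimap2 (2.17-r941) and used TranscriptClean for correction and TALON for isoform names. They deposited unfiltered read counts per isoform, neither normalized nor pooled. The 4 striatal samples with 2 count files had these summed. Per the labels, the raw data of these samples hold 2 replicates, and whether that means animals, libraries or runs is not stated in the sources used here, so the number of files was a term in the striatal fits and in fits over 16 samples. All cortical samples had 1 file, so fitted region differences set the striatum at the level of 1 file against the cortex. That level is not known to match how the cortex was counted.

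Isoform counts were summed per gene without the genomic, antisense and intergenic classes. Gene counts were scaled by TMM, filtered with filterByExpr and tested with the quasi-likelihood test of edgeR (4.0.16, R 4.3.3), with Benjamini-Hochberg adjustment over all genes and a threshold of 0.05. Members below the filter are given from the unfiltered fit. Genomic reads were fitted apart in the same way, and isoform usage was tested with diffSpliceDGE on isoforms with at least 10 reads. Share intervals are 95% Wilson intervals. DESeq2 (1.42.0), other scalings and filters, and leaving out each sample were alternatives. The code was tested on simulated data. Genes, lists and tests were chosen with earlier results of these data known. Named genes were the 5 members, partner genes with an adjusted p under 0.05 for genotype, and the 2 genes with the highest Pearson r to each member. Khdrbs1, Khdrbs2, Khdrbs3 and single isoforms and entries of members were named after their values were seen. No pairing was used, since the labels give none and same-numbered samples did not all deviate together. Transcript coordinates and junction sequences came from GENCODE M21 on mm10. No authors' comparison columns were used.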

Additional observations from a re-analysis of the deposited data

Results flagged for a closer look

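In 7 of 40 groups of 4 samples, 1 sample lay apart from the others by Dixon's criterion, which chance alone meets in about 1 of 20 groups. Genomic Nlgn1 reads were 1626 CPM in sample 4 of the NT cortex, against 1300 to 1343 CPM in the others. They were 1522 CPM in sample 4 of the R6/2 striatum, against 1894 to 1920 CPM. In sample 1 of the R6/2 striatum genomic Nlgn2 reads were 373 CPM, against 235 to 244 CPM, and genomic Nlgn3 reads were 284 CPM, against 228 to 237 CPM. Without the 523-nt Nlgn1 entry the R6/2 striatal values were 1420, 1920, 1894 and 1250 CPM. The other 3 cases were single isoform reads in groups otherwise at 0, where 1 read alone meets the criterion and the rate of 1 in 20 does not apply, Nlgn2 at 2.70 CPM in sample 1 of the NT cortex and at 1.57 CPM in sample 3 of the NT striatum, and Nlgn3 at 2.168 CPM in sample 2 of the NT cortex.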

How the results depend on the processing

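Depth limits most results, since 4 of 5 members had between 6 and 260 isoform reads. The number of genes called for genotype moved from 198 to 95 in the cortex without ISM isoforms. In the striatum it moved from 337 to 637 without a filter, 191 with the replicate block, 39 without the term for count files, 20 with the first file only and 510 with the genomic class, where Nrxn3 was −0.68 and called. For the interaction 3 calls became 9 without a filter, 8 with DESeq2, 1 with the replicate block and 1 without the term. Genomic calls went from 12 to 4 in the cortex without a filter, and from 101 to 40 (replicate block), 14 (no term) and 1 (first file) in the striatum. Usage calls became 28 (cortex) and 74 (striatum) with the gene-level F test, and 11 with ISM isoforms and 3 without the term in the striatum. Without the 71-nt entry, chosen after seeing the data, Nlgn1 reversed between regions to 1.88 in NT and 0.39 in R6/2 mice. Nlgn3 between regions in NT mice was 2.94 with DESeq2 and no longer called. Genomic region calls in NT mice were lost for Nrxn2 at −0.98 (no filter) and −0.99 (DESeq2) and for Nlgn1 at 0.58 (no filter), 0.56 (replicate block) and 0.27 (without the 523-nt entry, chosen after seeing the data), which in R6/2 mice reversed to −0.16. Uncalled genomic values reversed to 0.047 (no filter) and 0.016 (upper quartile) for Nrxn2 and 0.0078 (no filter) for Nrxn3 in the cortex, 0.21 for Nlgn2 in the striatum (first file), and 0.046 (no filter) and 0.019 (samples with 1 file, R6/2) for Nlgn3 between regions. The Nrxn2 long share was 0% at a minimum of 4000 nt. Apart from the 71-nt and 523-nt entries, the cause of these changes was not tested.

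Leaving out 1 sample gave 95 to 300 calls in the cortex, 139 to 397 in the striatum, 5 to 20 and 44 to 136 for genomic reads, 1 to 3 for the interaction, and 1 to 15 and 5 to 26 for usage in the cortex and striatum. Ranges for genomic reads (cortex genotype, striatum genotype, regions in NT, regions in R6/2) were −0.33 to 0.11, −0.20 to 0.055, −0.40 to 0.11 and −0.34 to 0.057 for Nlgn2, and −0.048 to 0.51, −0.036 to 0.31, −0.15 to 0.26 and −0.29 to 0.25 for Nlgn3. Nrxn2 ranged from −0.16 to 0.050 (cortex), −1.33 to −0.71 (regions, NT) and −0.87 to −0.39 (regions, R6/2), Nlgn1 from 0.45 to 0.68 (regions, NT) and Nrxn3 from −0.19 to 0.016 (cortex). For isoform reads the interaction ranged from −0.72 to 0.76 for Nrxn2 and −0.35 to 0.055 for Nrxn3, and the region difference of Nlgn3 in NT mice from 2.29 to 4.85. The Nrxn2 long share ranged from 0% to 3.57%, at 0% without NT cortex sample 4.

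Same-numbered samples correlated at −0.67 to 0.76 in the striatum and −0.11 to 0.27 in the cortex between genotypes. Between regions they correlated at −0.26 to 0.37 in NT mice and 0.028 to 0.62 in R6/2 mice, where 3 of 4 matched best with their own number, a hint from the data and not from the labels. Not every pair was over 0.1, so the replicate block was not taken as a pairing. Permutation tests of the long form share and of cassette exons were not run, for lack of reads.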
